A study of Mus musculus with 5 samples.

Results

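The STAT genes encode the transcription factors that carry cytokine signals from receptors at the cell surface to the nucleus. RNA Polymerase II over 6 of them, Stat2, Stat3, Stat4, Stat5a, Stat5b and Stat6, was described in mouse Th2 cells with and without PARP-14. They were chosen by name from the 11608 genes of the deposited table, and each row was accepted because its coordinates overlapped the locus of that gene on mm9. All 6 were accepted, and 8551 genes of the table, all 6 STAT genes among them, were assigned a called interval of polymerase in at least 1 library.

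The cells were naive CD4+CD62L+ T cells from spleens of C57BL6 mice 6 to 8 weeks old. They were activated through CD3 and CD28 under Th2 conditions, with IL-4 at 10 ng/ml and an antibody against IFN-γ, for 3 days and were then expanded in IL-2 and IL-4 for 4 days. Chromatin was precipitated with an antibody against the phosphoserine 2 form of RNA Polymerase II and sequenced, for cells of both genotypes without and with PJ34, as 1 library per condition. PJ34 is an inhibitor of ADP-ribosyltransferases, and the labels give 10 µM on differentiated cells whereas the methods of the study give a lower dose during culture. The labels name no cell type to which the Parp14 deletion is limited, and whether cells of several mice were pooled is not given in the sources used here. An Input library, an equal mix of both genotypes, was used by the authors to call intervals and entered no value below. Unless comparisons are named, 4 listed values stand for untreated Parp14+/+, treated Parp14+/+, untreated Parp14-/- and treated Parp14-/- cells, one after the other. Parp14+/+ or Parp14-/- alone means the untreated cells.

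A cytokine receptor brings together Janus kinases (JAKs), which phosphorylate the receptor and then the STAT protein. The phosphorylated STATs pair, enter the nucleus and bind elements made of TTC and GAA in the promoters of their target genes. STAT6 follows IL-4 and directs Th2 differentiation, and PARP-14 is known as a cofactor of STAT6. STAT4 follows IL-12 and directs Th1 differentiation. STAT5a and STAT5b follow IL-2, STAT3 follows IL-6 and IL-21, and STAT2 works with IRF9 downstream of type I interferon. Phosphorylation of serine 2 marks polymerase that is elongating, so the signal lies along gene bodies and past their ends as well as at their starts.

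Sequences at the starts given in the table are shown because the STAT genes differed in where polymerase was found. An interval lay over the start of Stat2, Stat3 and Stat5a in 4 of 4 libraries and over the start of Stat4 and Stat6 in 0 of 4. The start of Stat5b in the table was covered in every library but Parp14+/+ + PJ34. The sequences of Stat5a and Stat5b are not printed. The sequences run from 270 bases before to 30 bases after the start of the gene in the table, 5′ to 3′ on the strand of the gene, from NCBIM37, the assembly of mm9. Capitals mark the only match of the 3 motifs described next. The windows are chr10:127707362-127707661 on the plus strand for Stat2, chr11:100800796-100801095 on the minus strand for Stat3, chr1:52064818-52065117 on the plus strand for Stat4 and chr10:127079772-127080071 on the plus strand for Stat6.
Stat2: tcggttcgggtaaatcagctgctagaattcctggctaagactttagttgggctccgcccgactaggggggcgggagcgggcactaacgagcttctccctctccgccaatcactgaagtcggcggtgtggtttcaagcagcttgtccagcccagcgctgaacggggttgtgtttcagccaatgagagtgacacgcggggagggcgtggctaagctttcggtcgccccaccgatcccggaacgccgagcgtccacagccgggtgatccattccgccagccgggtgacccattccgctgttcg
Stat3: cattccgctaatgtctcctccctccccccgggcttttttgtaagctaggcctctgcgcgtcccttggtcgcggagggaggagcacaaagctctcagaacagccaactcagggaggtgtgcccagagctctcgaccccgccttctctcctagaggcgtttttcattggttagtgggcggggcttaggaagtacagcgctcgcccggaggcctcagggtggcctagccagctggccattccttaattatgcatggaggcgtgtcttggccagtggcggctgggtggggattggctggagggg
Stat4: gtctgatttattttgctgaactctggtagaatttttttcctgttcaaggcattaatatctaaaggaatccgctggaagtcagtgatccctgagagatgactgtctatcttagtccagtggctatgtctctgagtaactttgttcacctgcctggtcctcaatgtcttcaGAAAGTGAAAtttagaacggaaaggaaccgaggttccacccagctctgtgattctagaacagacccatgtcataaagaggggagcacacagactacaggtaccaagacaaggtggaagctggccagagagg
Stat6: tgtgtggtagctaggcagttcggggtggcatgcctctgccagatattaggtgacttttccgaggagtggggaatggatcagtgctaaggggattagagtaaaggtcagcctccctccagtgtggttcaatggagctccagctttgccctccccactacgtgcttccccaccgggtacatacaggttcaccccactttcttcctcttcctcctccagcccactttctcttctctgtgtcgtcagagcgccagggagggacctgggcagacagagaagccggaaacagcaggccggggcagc

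The windows of Stat2 and Stat3 held 62% and 61.3% G and C, close to the median of 61% over all 6724 promoter windows whose gene name matched its locus. The windows of Stat4 and Stat6 held 45% and 57.7%, and those of Stat5a and Stat5b 49.7% and 48.3%. The Stat5a start, covered by an interval in every library, thus had less G and C around it than the Stat6 start, covered in none. A link between G and C content and intervals at the start was not tested. The STAT dimer motif TTCNNNGAA was found in 0 of 6 STAT windows and in 6.37% of all windows, and the form TTCNNNNGAA, with the wider spacing that STAT6 accepts, in 0 of 6 and 5.5%. The core of the element bound by STAT2 complexes, GAAANNGAAA, was found in the Stat4 window alone, on the plus strand from 101 to 92 bases before the start, and in 2.87% of all windows. Unlike the other motifs, this one was not planned. Both strands were searched, the motifs do not share their letters in full, and a match is a match of letters only.

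For Stat4 and Stat5b the start in the table was not the start of the annotated gene. The annotation (Gencode M1) starts Stat4 21.1 kb and Stat5b 28.2 kb upstream. At that upstream start of Stat4 no interval was called in any library. At that of Stat5b an interval was called in all 4 libraries, with summits of 13, 9, 12 and 10, and these are not part of the value that the table gives for Stat5b. The windows of Stat4 and Stat5b above therefore lie inside the annotated genes, and the promoters at their annotated starts were not searched for motifs.

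The value of a gene in the table is its average peak height. An active region is a stretch in which intervals of any library of the table overlap, the height is the largest number of sequenced fragments that overlap at 1 position in that region, and the average is taken over the active regions of the gene. A ratio of heights below compares a pair of libraries, and its 95% interval is an exact binomial (Clopper-Pearson) interval of the heights summed over regions. It takes the heights as counts, although each is a maximum within its region. It covers counting error only, and with 1 library per condition no difference had a replicate check and no p-value is given. In chromatin from many cells, fewer cells with polymerase on a gene and less polymerase per cell cannot be told apart.

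**Figure D1:**
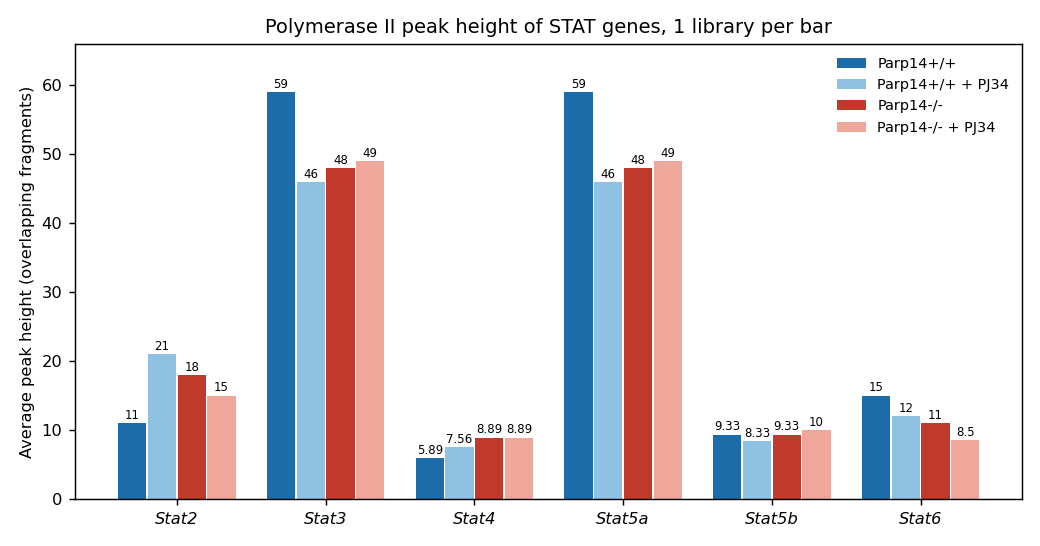
Average peak height of each STAT gene (number of overlapping fragments) in the 4 libraries, 1 bar per library with its value above. The bars of Stat3 and Stat5a are the same numbers because both genes lie in 1 active region, and the bars of Stat4 rise from 5.89 to 8.89 between Parp14+/+ and Parp14-/-.

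Stat6, the IL-4 responsive member, lies on chr10:127080042-127098043 on the plus strand. Its average peak height was 15, 12, 11 and 8.5. The Parp14+/+ library was the highest and the PJ34-treated Parp14-/- library the lowest. The ratio of Parp14+/+ to Parp14-/- was 1.36 (0.761 to 2.48), and that of the PJ34-treated pair was 1.41 (0.727 to 2.80), so that both intervals included 1.

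Most of the Stat6 signal lay at its end, where Nab2, a corepressor of EGR transcription factors, is transcribed towards it and overlaps it by 69 bp. Intervals began 10.2, 10.6, 10.6 and 9.26 kb downstream of the Stat6 start and ran through the end of the gene into Nab2. They covered 43.6%, 41.1%, 41.1% and 48.6% of Stat6. The highest point of this shared region was 24, 15, 14 and 11 fragments, which is also the value the table gives for Nab2. It lay in Nab2 sequence in 3 libraries, at 27 bp before and 421 and 293 bp past the Stat6 end, and in a coding exon of Stat6, 795 bp before its end, in Parp14-/-. The region ran on beyond Nab2. In Parp14-/- + PJ34 a separate interval there had a summit of the same height, 11 fragments. That summit lay 7589 bp past the Stat6 end, in a noncoding exon of Tmem194.

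With the shared region taken out, 1 active region at the start of Stat6 remained, with heights of 6, 9, 8 and 6. It held no called interval in any of the 4 libraries, so it was set by other libraries of the table. The order of the libraries differed between both regions: at the start the untreated pair had a ratio of 0.750 (0.214 to 2.46), in the shared region 1.71 (0.852 to 3.58). In the PJ34-treated pair the start gave 1.5 (0.477 to 5.12) and the shared region 1.36 (0.585 to 3.28). The ratio above 1 of Stat6 in the untreated pair therefore came from the region that it shares with Nab2, and polymerase of the genes in that region could not be told apart.

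Stat4, the IL-12 responsive member, lies on chr1:52065088-52164028 on the plus strand. Its average peak height over 9 active regions was 5.89, 7.56, 8.89 and 8.89, with the Parp14+/+ library the lowest. Among the STAT genes it alone had a ratio whose counting interval left out 1, and it did so in the untreated pair alone, at 0.663 (0.459 to 0.949). The other ratios were 0.850 (0.606 to 1.19) for the PJ34-treated pair, 0.779 (0.534 to 1.13) for Parp14+/+ over Parp14+/+ + PJ34 and 1.00 (0.724 to 1.38) for Parp14-/- over Parp14-/- + PJ34.

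Few of the Stat4 regions held a called interval. Those from the start to 53012 bp into the gene held none in any of the 4 libraries, so they were set by other libraries of the table. Intervals covered 0, 1.05, 10.05 and 1.05 kb of Stat4. The summits were low and lay in introns: 5 fragments at 66.7 kb from the start in Parp14+/+ + PJ34, 8 at 77.5 kb and 6 at 85.6 kb in Parp14-/-, and 8 at 56.4 kb in Parp14-/- + PJ34. Each of these summits lay in a different active region. An interval in Parp14-/- and none in Parp14+/+, as over 1 STAT gene, Stat4, was found for 7.97% of the 7530 genes that an interval overlapped, and the reverse for 0 STAT genes and 20.4% of these. With PJ34 the same counts were 0 STAT genes, beside 8.09% of genes, and 0 STAT genes, beside 20.9%. The table itself marks Stat4 as holding an interval in each library, through the region past its end.

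The tallest signal in the Stat4 value came from outside the gene. The last of its 9 active regions, 23850 bp long, runs past the gene end into a downstream neighbour. Its height was 12, 17, 23 and 26, with a ratio of 0.522 (0.237 to 1.09) in the untreated pair. A summit between the genes, 6148 to 6676 bp past the Stat4 end, reached 10, 17, 23 and 26 fragments, with a ratio of 0.435 (0.185 to 0.950) in the untreated pair. This summit was singled out after its values had been seen, and it is not the height that enters the Stat4 value of Parp14+/+. The 8 regions that belong to Stat4 alone had summed heights of 41, 51, 57 and 54, and their ratio in the untreated pair was 0.719 (0.469 to 1.09), with 1 inside the interval. In the PJ34-treated pair it was 0.944 (0.631 to 1.41). These 8 regions averaged 5.125, 6.375, 7.125 and 6.75 fragments, beside a median of 9 for the summits of called intervals in each library.

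**Figure D2:**
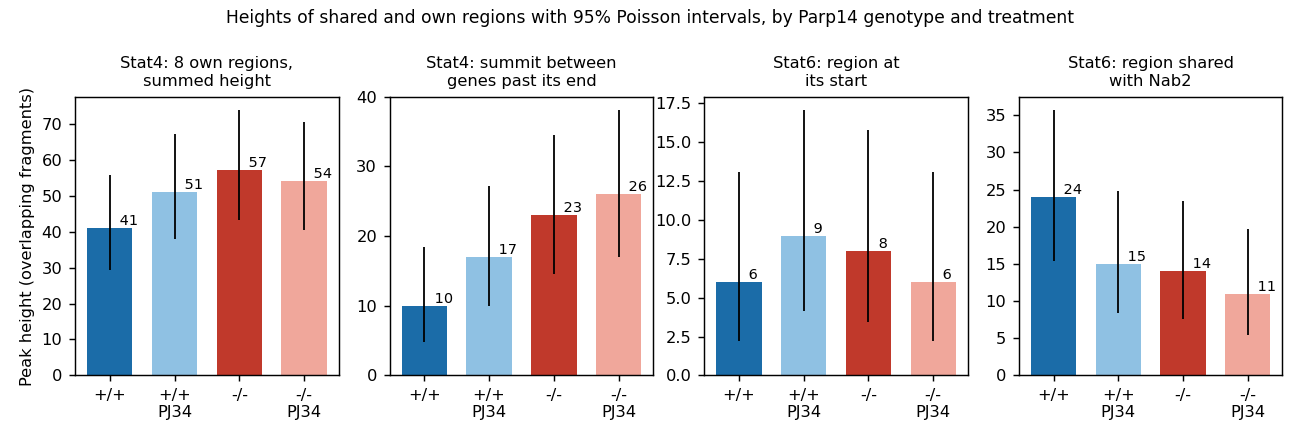
Peak heights (overlapping fragments, bars from 0, each panel with its own axis) of the Stat4 and Stat6 regions taken apart, by library, with lines for exact 95% Poisson intervals. The summit past Stat4 rises from 10 to 26, the start region of Stat6 stays between 6 and 9, and the region shared with Nab2 falls from 24 to 11.

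Stat5b, which with Stat5a serves the IL-2 receptor, lies on chr11:100642045-100683842 on the minus strand and had the least varied heights of the STAT genes, its highest library at 1.2 times its lowest. Its average over 3 active regions was 9.33, 8.33, 9.33 and 10. The untreated libraries were equal, with a ratio of 1.00 (0.571 to 1.75), and the PJ34-treated pair gave 0.833 (0.470 to 1.47). The other 2 ratios were 1.12 (0.630 to 2.00) for PJ34 in Parp14+/+ cells, untreated over treated, and 0.933 (0.537 to 1.62) in Parp14-/- cells.

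The extent of polymerase over Stat5b varied more than its height. Intervals covered 23.8, 11.6, 33.7 and 22.6 kb, or 56.9%, 27.6%, 80.6% and 54.1% of the gene, and their number was 3, 2, 6 and 3. The Parp14-/- library had the longest and the PJ34-treated Parp14+/+ library the shortest coverage. Over all 8551 genes the median share covered was 16.9%, 11.0%, 5.67% and 4.18%, an order in which both Parp14-/- libraries were the lowest. Stat4 and Stat5b were covered over a greater length in Parp14-/- than in Parp14+/+, as were 23.5% of 6753 genes covered in either, whereas 63.2% were covered over a greater length in Parp14+/+. Stat2, at 17.3 against 16.9 kb, and Stat6, at 7.84 against 7.39 kb, were with the latter by little, and Stat3 and Stat5a were covered whole in both. With PJ34, coverage was longer in Parp14-/- for 3 STAT genes, Stat3, Stat5b and Stat6, and for 28.5% of 6535 genes, and longer in Parp14+/+ for 1, Stat2, and for 58.9%. The region at the 3′ end of Stat5b is shared with Ghdc, whose value was 8, 9, 11 and 12. Of the summits inside the limits that the table gives Stat5b, and in no other gene, the highest reached 6, 10, 11 and 13 fragments, with a ratio of 0.545 in the untreated pair. In the untreated pair these summits lay in introns, 11.9 kb from the start in the table in Parp14+/+ and 14.3 kb in Parp14-/-. The limits leave out intronic summits upstream of that start, of 8 fragments in Parp14+/+ and of 10 and 9 in Parp14-/-. They also leave out the annotated start of Stat5b, where the untreated libraries had 13 and 12 fragments. The direction of that ratio therefore depends on which part of the gene is counted.

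Stat5a and Stat3 are transcribed towards each other on chromosome 11, Stat5a on chr11:100720718-100746483 on the plus strand and Stat3 on chr11:100748124-100800825 on the minus strand. Both lie in 1 active region of 83850 bp, so the table gives both the same heights, 59, 46, 48 and 49. Parp14+/+ was the highest library and the other 3 were within 3 fragments of each other. The ratios were 1.23 (0.826 to 1.84) in the untreated pair, 0.939 (0.614 to 1.43) in the PJ34-treated pair, 1.28 (0.858 to 1.93) for Parp14+/+ over Parp14+/+ + PJ34 and 0.980 (0.644 to 1.49) for Parp14-/- over Parp14-/- + PJ34.

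A single interval ran across Stat5a and Stat3 in 3 libraries, 82.35 kb long in Parp14+/+, 82.5 kb in Parp14-/- and 83.25 kb in Parp14-/- + PJ34. By length it ranked 47 of 11692, 22 of 10228 and 21 of 8841 intervals. In Parp14+/+ + PJ34 a gap inside Stat3 left an interval of 68.4 kb and a separate one over the Stat3 start, whose summit of 18 fragments lay 359 bp upstream of that start. Stat5a was covered whole in 4 of 4 libraries and Stat3 to 98.6% or more.

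The summit of this interval was among the tall ones, with 0.505%, 0.941%, 1.12% and 1.14% of the summits of each library above it. It lay 525, 461, 333 and 493 bp past the Stat5a end and 1116, 1180, 1308 and 1148 bp past the Stat3 end of the table. In the annotation Stat3 ends further on, at position 100746412, so that the summit falls in the 3′ untranslated region of Stat3. The 2 genes converge there, and the part of each in the height could not be told apart. The height at the Stat3 start was seen in 1 library only.

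Stat2, the interferon responsive member, lies on chr10:127707632-127729905 on the plus strand and had its highest summit at or near its start in each library. Its peak heights were 11, 21, 18 and 15. The untreated Parp14+/+ library stood lowest and its PJ34-treated counterpart highest. The ratio was 0.611 (0.261 to 1.37) in the untreated pair and 1.4 (0.688 to 2.92) in the PJ34-treated pair, which lie on opposite sides of 1 with intervals that include it. Parp14+/+ over Parp14+/+ + PJ34 gave 0.524 (0.228 to 1.14) and Parp14-/- over Parp14-/- + PJ34 gave 1.2 (0.571 to 2.56).

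Those summits lay within 16 bp of the Stat2 start in 3 libraries and 432 bp inside the gene, in an intron, in Parp14+/+. A second interval in the gene body, with its summit 13.5 to 14.4 kb from the start, had heights of 8, 13, 12 and 8, in which the PJ34-treated Parp14+/+ library again stood highest. A further interval over the gene end reached 7, 8, 8 and 8. Stat2 was covered to 77.8%, 75.8%, 75.8% and 67.0%, and the interval at its start reached 7.47, 11.2, 12.0 and 8.82 kb into the gene. Apof and Il23a, its neighbours, lie in the same active region and carry the same values in the table, so only the position of the summit ties the value to Stat2. Apof lies upstream on the same strand, and polymerase past its end was not separated. In Parp14+/+ + PJ34 the summit lay 16 bp upstream of the Stat2 start. With summits inside Stat2 alone the ratio was 0.867 in the PJ34-treated pair and 0.846 for Parp14+/+ over Parp14+/+ + PJ34. In the untreated pair it stayed at 0.611.

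**Figure D3:**
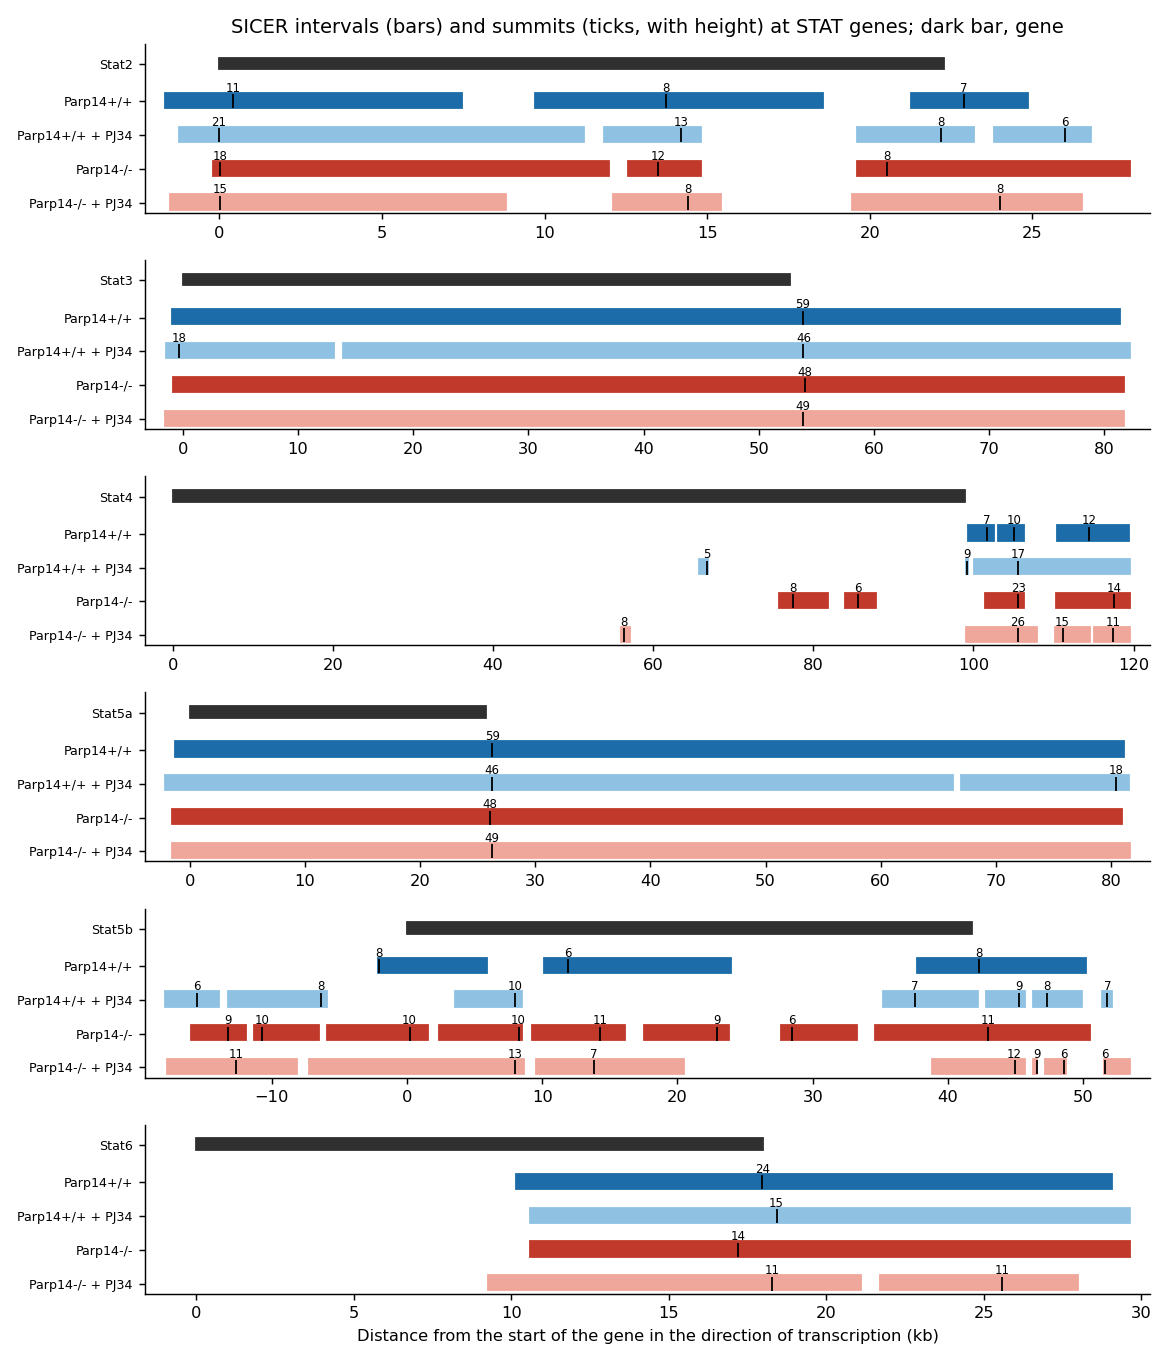
Called intervals (coloured bars, 1 row per library) and their summits (ticks, with height in fragments) at each STAT gene, against distance from the start of the gene in kb, with the gene as a dark bar. Stat2 has its highest summit at the start, Stat6 has no interval before 9.26 kb, Stat3 and Stat5a are covered nearly whole, and Stat4 holds at most 10.05 kb of intervals.

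The study calls ratios above 1.4 or below 0.7, and also ratios from 1.2 to 1.4 and from 0.7 to 0.83 for genes above a limit of level. That limit is on another scale than the heights of the table and was not applied, so the narrower bands, in which Stat6, Stat3 and Stat5a lay in the untreated pair, were left out of the counts that follow. By the outer limits the loss of Parp14 in untreated cells put 0 STAT genes above, 2 below, Stat2 and Stat4, and 4 within. Of 8538 to 8540 genes tested in each comparison, 12.7% were above and 11% below in the untreated pair. A counting interval wholly below 1, as for Stat4, was found for 2.07% of genes and one wholly above 1, as for 0 STAT genes, for 0.984%. In the PJ34-treated pair 1 STAT gene, Stat6, was above, at 1.41 against a limit of 1.4, and 0 were below, where all genes gave 22.6% and 5.8%. For Parp14+/+ over Parp14+/+ + PJ34 there were 0 above and 1 below, Stat2, against 7.2% and 10.9% of all genes. For Parp14-/- over Parp14-/- + PJ34 all 6 were within the limits, where 15.1% of genes were above and 6.29% below. In these 3 comparisons 0 STAT genes had a counting interval clear of 1, beside 2.67% of all genes above and 0.761% below in the PJ34-treated pair, 0.691% and 0.913% for PJ34 in Parp14+/+ cells and 1.37% and 0.269% in Parp14-/- cells.

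**Figure D4:**
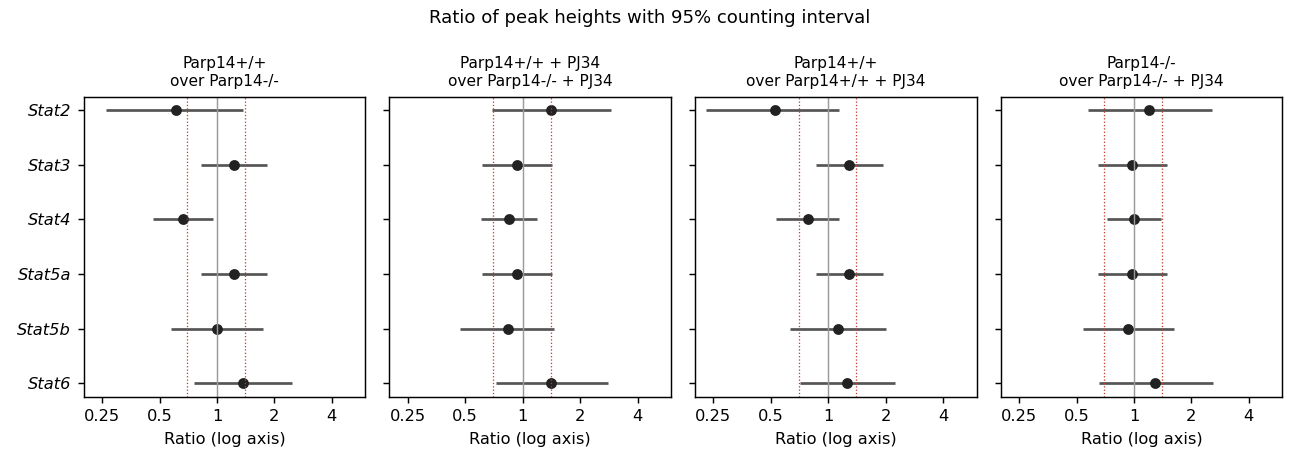
Ratio of peak heights (log axis) of each STAT gene in the 4 comparisons, points with 95% counting intervals as lines, a solid line at 1 and dotted lines at 0.7 and 1.4. Only the Stat4 interval in the untreated pair, 0.459 to 0.949, lies clear of 1, and Stat2 changes from 0.611 to 1.4 between the untreated and the treated pair.

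The median ratio of the STAT genes was 1.11 in the untreated pair, beside 1 for all genes, and 0.939 in the PJ34-treated pair, beside 1.14. It was 1.19 for PJ34 in Parp14+/+ cells, untreated over treated, beside 0.959, and 0.990 in Parp14-/- cells beside 1.08. Stat3 and Stat5a enter these medians with the same heights, and each untreated library enters 2 comparisons. On the log2 scale the median of all genes was shifted by 0.19 in the PJ34-treated pair, 0.12 for PJ34 in Parp14-/- cells and -0.06 in Parp14+/+ cells. Relative to that shift no STAT gene passed a limit in the PJ34-treated pair.

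The wider pathway was read from a list of 51 genes of JAK-STAT signalling other than the STATs themselves, of which 48 had a row that matched its locus and an interval assigned to it. In the untreated pair 7 of these were above 1.4 and 6 below 0.7, beside 12.7% and 11% of all genes. In the PJ34-treated pair the counts were 4 and 4, beside 22.6% and 5.8%. PJ34 gave 7 above and 2 below in Parp14+/+ cells, beside 7.2% and 10.9%, and 4 and 1 in Parp14-/- cells, beside 15.1% and 6.29%, untreated over treated. In these 4 comparisons, in the same order, the medians of the list were 0.979, 1.06, 1.02 and 1.15, beside 1, 1.14, 0.959 and 1.08 for all genes. Counting intervals wholly below 1 were found in 6 genes of the untreated pair, or 1 of 4 kinases, 2 of 16 receptor chains, 0 of 15 inhibitors and 3 of 13 partners and targets, and intervals wholly above 1 in 0, beside 2.07% and 0.984% of all genes. In the PJ34-treated pair 0 pathway genes had an interval wholly above 1 and 1 wholly below, beside 2.67% and 0.761% of all genes. PJ34, untreated over treated, gave 1 above and 0 below in Parp14+/+ cells, beside 0.691% and 0.913%. In Parp14-/- cells it gave 3 above and 0 below, beside 1.37% and 0.269%. Such intervals narrow as the summed height grows, so tall genes and genes with many regions clear 1 more easily. The shares of all genes were not matched for height.

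The 4 JAK kinases kept ratios between the limits in the untreated pair. Jak1, which serves most of these receptors, had average heights of 8.25, 10.25, 10.75 and 10.25. Jak2, used by the IFN-γ and IL-12 receptors, had 107, 106, 140 and 132, with a ratio of 0.764 (0.589 to 0.990) in the untreated pair. Jak3, which binds the common γ chain of the IL-2 and IL-4 receptors, had 30, 21, 27 and 21. Tyk2, used by the type I interferon and IL-12 receptors, had 15, 20, 11 and 11, and was above the limit in the PJ34-treated pair at 1.82 (0.83 to 4.2).

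Among the other pathway genes whose summed height reached 20 in either library of the pair compared, the lowest ratios in the untreated pair were those of Ifngr1, a chain of the IFN-γ receptor, at 0.5 (0.243 to 0.982), of Myc, a growth regulator that STATs induce, at 0.563 (0.373 to 0.842) and of Il10ra, a chain of the IL-10 receptor, at 0.613 (0.327 to 1.12). The highest were those of the phosphatases Ptpn11 at 1.87 (0.964 to 3.76) and Ptpn6 at 1.48 (0.992 to 2.22) and of Il2rg, the common γ chain, at 1.60 (0.806 to 3.28). In the PJ34-treated pair Myc was again lowest at 0.677 (0.447 to 1.02), followed by Il10ra at 0.680 (0.345 to 1.31) and Socs3, an inhibitor of JAK signalling, at 0.683 (0.407 to 1.13). The highest there were Pias1, an inhibitor of STAT binding to DNA, at 1.52 (0.874 to 2.70), the Th2 factor Gata3 at 1.35 (0.894 to 2.05) and the cyclin Ccnd2 at 1.32 (0.861 to 2.03). Ptpn6 shares a region with at least 4 other genes, Jak2 and Jak3 with at least 2 each, and Jak1, Tyk2, Il2rg, Pias1 and Gata3 with at least 1 each. Their heights need not be their own. Sharing was looked for only among the 6724 of 11608 genes whose name matched its locus, so the other genes named may share regions too.

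**Figure D5:**
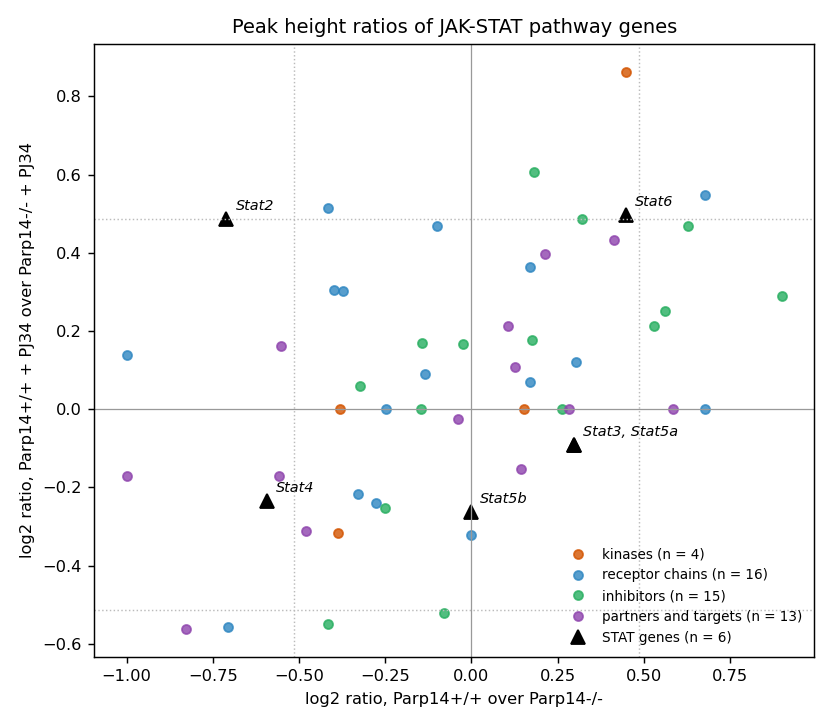
Log2 ratio of peak heights in the PJ34-treated pair (vertical axis) against the untreated pair (horizontal axis) for the 48 pathway genes (circles, by class) and the 6 STAT genes (triangles), with dotted lines at ratios of 0.7 and 1.4. Stat2 lies at the left and top with ratios of 0.611 and 1.4, and Stat4 lies to the left of 0 and below it.

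The genes whose pattern over the 4 libraries was nearest to that of a STAT gene were found by the distance between log2 heights centred on the mean of each gene, among 2951 candidates. Nearest to Stat6 were 1700029G01Rik and Thrap3 (0.0652 each), to Stat4 Sod1 (0.0288) and Dcp1b (0.0551), and to Stat5b Usp33 (0.0467) and Retsat (0.0509). Nearest to Stat3 and Stat5a were Gcn1l1 (0.0221) and Fntb (0.0275), and to Stat2 Lmnb1 (0.0280) and Ccdc6 (0.122). With 4 libraries such nearness describes these heights only.

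The label of the cells was read from intervals at marker genes. Of 6 Th2 markers 6, 6, 5 and 5 carried an interval, and Il4, Il13, Gata3, Il4ra and Ccr4 did so in all 4 libraries. Il5 carried one in both Parp14+/+ libraries and in neither Parp14-/- library. Of 5 T helper markers 5, 4, 3 and 4 carried one, with Cd4 lacking it in Parp14-/- and Cd3g in every library but Parp14+/+. No summit lay inside Cd3g, Il5, Il13 or Il4ra in any library, nor inside Ccr4 or Ifng in any library but Parp14-/-. Of 4 Th1 markers, Tbx21, Ifng and Il12rb2 carried one in every library and Cxcr3 in none, beside which the Stat4 values stand, and the part of Th1 cells in them was not tested. Markers of CD8 T cells and NK cells carried none, those of B cells 1 of 4 in Parp14+/+ + PJ34 and those of myeloid cells 1 of 4 in 3 libraries. Parp14 itself was covered over 22.9, 20.8, 2.69 and 3.29 kb, with heights of 8, 11, 6.67 and 6.67, and the number of intervals in the whole library was 11692, 12014, 10228 and 8841.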

How the data were processed

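The authors aligned reads to mm9 (ELAND), dropped duplicates, cut all libraries to 1 common number of alignments, and called intervals with SICER (named without a version in the submitters' processing notes) in each library against Input. Depth was thus equal by construction. The deposited gene table gives signal as an average peak height, a 0 or 1 for the presence of an interval and the count of active regions, and a deposited track gives intervals and summits. Average heights equalled the highest summit in 95.3% of 11564 cases with 1 region and an interval, which shows what they hold. The table has 8 columns of other libraries, not used. Names matched the locus in Gencode M1 (NCBIM37) in 6724 of 11608 rows. Genes that share a region with a STAT or pathway gene were looked for among these rows only.

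Ratios had no pseudocount, and their intervals came from summed heights in Python 3.11.15 with scipy 1.17.1, numpy 2.4.6, pandas 2.3.3 and matplotlib 3.10.9. The code was tested on simulated data. The simulated heights were Poisson counts, whereas the real ones are maxima of overlapping fragments, so that test cannot show how well the intervals hold for real heights. Stat6 was separated from Nab2 by subtracting the height of Nab2, and Stat4 from its neighbour by the highest summit. Genes named were the STAT genes, those sharing their regions, Parp14, the JAK kinases, the 3 highest and 3 lowest pathway ratios in each genotype comparison (summed height of at least 20 in its higher library) and the 2 nearest patterns. Members and lists were chosen with earlier results of these data known. A neighbouring gene's values are not reported. Alternatives covered the height used, scaling, covered length, a pseudocount, the limits and the shared regions.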

Additional observations from a re-analysis of the deposited data

Results flagged for a closer look

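The effect of PJ34 pointed in opposite directions in the 2 genotypes for 4 STAT genes, each with 1 library per condition, so the difference was not tested. For Stat2 the height after PJ34 was 1.91 times the untreated height in Parp14+/+ cells and 0.833 times in Parp14-/- cells, a ratio of the ratios of 2.29 with a counting interval of 0.842 to 6.23. For Stat3 and for Stat5a, which share their region, the values were 0.780 and 1.02 times, and the ratio of the ratios was 0.764 (0.439 to 1.33). For Stat5b they were 0.893 and 1.07 times, with 0.833 (0.395 to 1.76). All of these intervals include 1.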

How the results depend on the processing

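The number of STAT genes past the limits was 2 in the untreated pair, 1 in the PJ34-treated pair, 1 for PJ34 in Parp14+/+ cells and 0 for PJ34 in Parp14-/- cells. Limits of 1.2 and 0.83 gave 5, 2, 5 and 1, and limits of 2 and 0.5 gave 0 in all 4. With covered length in place of height the untreated pair gave 0 (Stat4, with 0 kb covered in Parp14+/+, has no such ratio there) and PJ34 in Parp14-/- cells gave 2. The PJ34-treated pair gave 0 with libraries scaled to a median ratio of 1 and 0 with 1 added to each height. With the highest peak of each gene, PJ34 in Parp14+/+ cells gave 2 (1 above, Stat6, and 1 below, Stat2), the untreated pair gave 3, with Stat6 now above at 1.71, and the PJ34-treated pair gave 1 that was Stat4, below at 0.654, in place of Stat6. Covered length put Stat5b in place of Stat6 there, below at 0.511, and in place of Stat2 for PJ34 in Parp14+/+ cells, above at 2.06. Summits inside a gene and no other gene also gave 1 below, Stat4, in place of 1 above in the PJ34-treated pair. With the same summits the untreated pair again gave 2 below, but with Stat5b at 0.545 in place of Stat4, which had no ratio. PJ34 in Parp14+/+ cells gave 1 below, Stat5b at 0.6 in place of Stat2, then at 0.846. Chosen after seeing the data, leaving out the region past the end of Stat4 gave 1 in the untreated pair, and leaving out the region shared with Nab2 gave 2 for PJ34 in Parp14+/+ cells. Adding 1 to each height, also chosen after seeing the data, left 3 of 5 pathway genes past the limits for PJ34 in Parp14-/- cells. Scaling, chosen likewise, changed the pathway genes of the PJ34-treated pair from 4 above and 4 below to 1 and 6. Of the 6 STAT genes with an interval in Parp14+/+ + PJ34, 3 had at least 50% of the gene covered. Of 112 single ratios under the alternatives 106 stayed inside the counting interval of the reported ratio, 6 left it and 0 reversed a call. These intervals are wide, so staying inside does not mean that a direction held. Stat2 in the PJ34-treated pair went from 1.4 to 0.867 with summits inside the gene alone and still counted as inside. Only Stat4 in the untreated pair had a reported interval clear of 1, so the 0 reversals say little about the other ratios. Summits inside a gene and no other gene gave no ratio for Stat3, Stat5a and, where 1 library had none, Stat4 and Stat6. No paired analysis was possible because the labels give no replicate numbers and each condition has 1 library. The cause of these changes was not tested.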
